A study of Mus musculus with 6 samples.

Results

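Distal intergenic H3K4me3 regions that recurred in every peak list were examined. They numbered 2451, of 61168 regions formed by merging overlapping peaks of the 6 lists and of 20904 regions on chromosomes 1 to 19 that held a peak of all 6 lists. Each lay more than 10 kb from every transcript start of the GENCODE M21 annotation and outside every annotated gene body. The members were therefore selected on the presence of a peak in all 6 lists and on position, and their recurrence is a property of the choice and not a result. Sequence and the identity of the nearest gene did not enter the rule, and strength entered it only through the need for a called peak in each list.

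The lists came from STHdh cells, conditionally immortalised striatal progenitor lines of C57BL/6 mouse background with a homozygous knock-in at huntingtin. All cells were held in serum-free medium for 24 hours. The wild-type line received vehicle (Q7SST), and the mutant line, which carries the expanded polyglutamine tract, received vehicle (Q111SST) or 10 uM of cyproheptadine, loxapine, meclizine or diacylglycerol kinase inhibitor II (DKI). Chromatin was digested with micrococcal nuclease, precipitated with an antibody against H3K4me3 and sequenced, and there was 1 list per condition. The wild-type and mutant lists come from different cell lines, so clonal differences and the huntingtin allele cannot be told apart, and no test between conditions was possible.

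The mark H3K4me3, histone H3 trimethylated at lysine 4, is best known at the starts of transcribed genes with CpG-rich promoters. Weaker H3K4me3 also occurs at active enhancers, which lie far from the genes they regulate and are more often recognised by monomethylation of the same residue. Enhancers are commonly bound by AP-1, a dimer of Fos and Jun family proteins that responds to growth factors and stress, whereas short genes read by RNA polymerase III, such as those for tRNAs, can carry H3K4me3 without a coding gene nearby.

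The lists held 30758 to 45564 peaks. Peaks within 1 kb of a coding start were used to check the cell type. Of 10 neural progenitor markers, 6 were marked in all 6 lists (Vim, Sox9, Fabp7, Notch1, Hes1 and Cdh2), as were 5 of 6 mesenchymal markers. None of 6 striatal neuron, 5 oligodendrocyte and 4 microglia markers was marked in all 6 lists, and Drd1 and Drd2, the dopamine receptor genes that define striatal neurons, were marked in none. Of the other classes, 2 of 4 neuronal, 1 of 4 astrocyte and 1 of 4 endothelial markers were marked in all 6 lists. The part of other cell types in the results was not tested.

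The intergenic label depends on the annotation. In RefSeq, on the same genome build, 422 of the 2451 members (17.2%) overlapped a gene, mostly a long noncoding RNA (326 members), while 68 overlapped a coding gene. A RefSeq transcript started within 1 kb of 173 members (7.06%), and 1823 members lay more than 10 kb from every RefSeq start and outside every RefSeq gene. Enhancers listed as functional elements in RefSeq overlapped 31 members (1.26%; 95% Wilson interval 0.892% to 1.79%), against 0.312% of regions within 1 kb of a start (0.227% to 0.427%). All intervals are 95% Wilson intervals, which cover counting error only, and neighbouring regions are not independent.

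The central sequences of the strongest members are shown because the account of strength begins with them. Strength was taken from the score in the peak list, and for comparison the strongest score of a list in a region was ranked among the 20904 regions found in all 6 lists and given as a percentile. The 200 bases around the middle of the stretch shared by the lists are printed on GRCm38, 5′ to 3′, and capitals mark CpG dinucleotides.
chr12:3109873-3110072, plus strand, nearest coding gene Rab10: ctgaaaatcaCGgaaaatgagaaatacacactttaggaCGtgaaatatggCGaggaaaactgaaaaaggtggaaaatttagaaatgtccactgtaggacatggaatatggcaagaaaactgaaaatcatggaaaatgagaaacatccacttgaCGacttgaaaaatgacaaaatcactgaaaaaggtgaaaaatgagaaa
chr19:61199787-61199986, plus strand, nearest coding gene Gm6020: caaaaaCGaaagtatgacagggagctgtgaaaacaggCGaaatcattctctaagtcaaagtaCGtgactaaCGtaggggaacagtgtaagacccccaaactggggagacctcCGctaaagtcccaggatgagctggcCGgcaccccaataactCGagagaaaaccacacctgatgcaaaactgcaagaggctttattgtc
chr8:67431385-67431584, plus strand, nearest coding gene Nat1: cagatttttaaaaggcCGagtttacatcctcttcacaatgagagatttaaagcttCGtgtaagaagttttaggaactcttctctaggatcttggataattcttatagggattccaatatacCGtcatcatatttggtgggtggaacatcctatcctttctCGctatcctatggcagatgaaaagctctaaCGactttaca
chr9:24541978-24542177, plus strand, nearest coding gene Dpy19l1: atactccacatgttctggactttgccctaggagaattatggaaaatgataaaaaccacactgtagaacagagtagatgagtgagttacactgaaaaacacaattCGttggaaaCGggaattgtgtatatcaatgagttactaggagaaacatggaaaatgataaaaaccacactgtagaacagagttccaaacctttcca
chr10:57448148-57448347, plus strand, nearest coding gene Hsf2: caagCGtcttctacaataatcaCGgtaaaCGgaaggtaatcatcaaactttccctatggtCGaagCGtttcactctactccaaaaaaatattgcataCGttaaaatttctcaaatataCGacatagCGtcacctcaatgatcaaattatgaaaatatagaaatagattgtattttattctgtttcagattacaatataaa
chr19:34662321-34662520, plus strand, nearest coding gene Ifit1: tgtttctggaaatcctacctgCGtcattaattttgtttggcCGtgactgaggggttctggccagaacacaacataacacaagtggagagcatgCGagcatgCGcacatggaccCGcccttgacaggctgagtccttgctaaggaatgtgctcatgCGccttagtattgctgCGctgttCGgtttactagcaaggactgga
The first of these was 95.3% repeat-masked over 300 bases, and 70.3% of its overlapping 32-base words occurred elsewhere in the genome, with a median of 26 copies. The Hsf2 region was 40.3% GC but held 14 CpGs in 300 bases.

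The members that differed most between Q7SST and the median of the 5 mutant lists are shown next, again with CpGs in capitals.
chr4:136117302-136117501, plus strand, nearest coding gene Id3 (highest in wild-type cells): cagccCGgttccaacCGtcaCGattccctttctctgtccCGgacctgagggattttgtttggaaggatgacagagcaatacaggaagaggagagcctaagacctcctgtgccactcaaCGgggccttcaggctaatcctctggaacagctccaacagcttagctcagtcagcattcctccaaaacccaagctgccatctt
chr15:96830214-96830413, plus strand, nearest coding gene Slc38a2 (lowest in wild-type cells): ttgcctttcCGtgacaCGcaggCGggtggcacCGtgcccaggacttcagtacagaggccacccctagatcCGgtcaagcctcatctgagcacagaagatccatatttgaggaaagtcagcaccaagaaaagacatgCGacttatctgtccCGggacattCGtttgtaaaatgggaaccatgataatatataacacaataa
Sequences with a motif are shown for the strongest member that held it in the central 300 bases. The AP-1 motif TGANTCA, searched on both strands, is in capitals here.
chr8:109750566-109750865, plus strand, nearest coding gene Atxn1l: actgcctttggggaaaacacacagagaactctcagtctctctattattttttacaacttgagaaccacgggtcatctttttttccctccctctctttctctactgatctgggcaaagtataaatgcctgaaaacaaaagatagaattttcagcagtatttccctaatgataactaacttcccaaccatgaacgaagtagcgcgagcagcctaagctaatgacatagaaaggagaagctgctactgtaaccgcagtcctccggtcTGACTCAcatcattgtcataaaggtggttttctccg
It was found in 38.6% of members and in 20.6% of all 20904 regions. The B box core of tRNA promoters, GTTCGANNC on either strand, is in capitals in the next sequence, which lay beside a RefSeq glycine tRNA gene, n-TGgcc4.
chr1:171044844-171045143, plus strand, nearest coding gene Fcgr3: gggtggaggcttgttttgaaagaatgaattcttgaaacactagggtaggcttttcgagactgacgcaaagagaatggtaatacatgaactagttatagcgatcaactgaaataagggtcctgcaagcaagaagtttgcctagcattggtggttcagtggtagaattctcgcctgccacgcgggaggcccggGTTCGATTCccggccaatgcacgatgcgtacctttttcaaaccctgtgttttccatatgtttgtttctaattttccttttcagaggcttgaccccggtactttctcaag
The B box core was found in 13 members (0.530%) and in 1.13% of all regions, and 6 of those 13 members lay within 1 kb of a RefSeq tRNA gene. A match describes the letters in a window and is not evidence of binding. The last sequence is a stretch of 200 bases, CpGs in capitals, that occurred letter for letter in 15 of 16 members strung along chromosome 6 between Ezh2 and Pdia4.
chr6:47655102-47655301, plus strand, nearest coding gene Ezh2: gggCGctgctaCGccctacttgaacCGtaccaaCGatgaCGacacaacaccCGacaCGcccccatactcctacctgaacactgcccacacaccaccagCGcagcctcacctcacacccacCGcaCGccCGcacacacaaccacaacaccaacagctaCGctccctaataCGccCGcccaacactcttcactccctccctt

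Most members lay far from any gene start. The median distance to the nearest start of any kind was 26430 bp, with a range of 10009 bp to 545014 bp, and 556 members were more than 50 kb away. The nearest start belonged to a coding gene for 865 members (35.3%), to a pseudogene for 609 (24.8%) and to a lincRNA for 540 (22.0%). The nearest coding start was a median of 55892 bp away. Merged width had a median of 1230 bp (quartiles 985 and 1559 bp), against 1970.5 bp for the 12194 regions within 1 kb of a start. Chromosome 3 held the most members, 203, while chromosomes 10 and 15 had the most per length, 1.48 per Mb each, and chromosome 14 the fewest, 0.496 per Mb. As a share of the regions in all 6 lists, members made up 9.35% on chromosome 14, within the range of 7.13% to 16.6% over the chromosomes.

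Values on both sides of the 10 kb limit are given once, as a description. The member nearest to it, chr4:106857929-106860032, lay 10009 bp from the lincRNA gene Gm12746 and scored 26 to 58 over the lists. The next members were 10014 bp and 10019 bp from a start, beside Gm9800 and Gm47818, and scored 31 to 109 and 45 to 80. The nearest excluded region, chr13:119669617-119670042, lay 9998 bp from 1700074H08Rik and scored 159 in Q7SST and 21 to 99 in the mutant lists, in sequence that was repeated throughout. The other excluded regions lay 9992 bp from Gm13250 and 9980 bp from BC021767, and scored 60 to 139 and 82 to 209.

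Of 12498 distal intergenic regions in any list, 4910 (39.3%) were in 1 list and 2451 (19.6%; 18.9% to 20.3%) were in all 6. Among regions within 1 kb of a start 70.4% (69.7% to 71.1%) were in all 6. Distal regions inside genes were retained at 20.1% (19.4% to 20.8%), an interval that overlaps that of the distal intergenic regions.

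H3K4me3 at the members was weak. The median score was 51 in Q7SST and 54 in Q111SST. Among the compounds it was 67 with loxapine, 64 with meclizine, 42 with DKI and 41 with cyproheptadine. Regions within 1 kb of a start, called promoter regions here, had medians of 113 in Q7SST and 109 in Q111SST, and of 79 to 120 with the compounds. The other classes were close to the members. Regions more than 1 kb and up to 10 kb from a start had medians of 51 in Q7SST and 55 in Q111SST. Distal regions inside genes had medians of 47 and 52. In percentiles the members' medians ran from 27.5 in Q7SST to 33.6 with loxapine, and promoter medians from 63.9 to 66.7. The spread among members was wide, since 581 members (23.7%) had a median percentile over the 6 lists above 50 and 43 (1.75%) above 95.

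**Figure D1:**
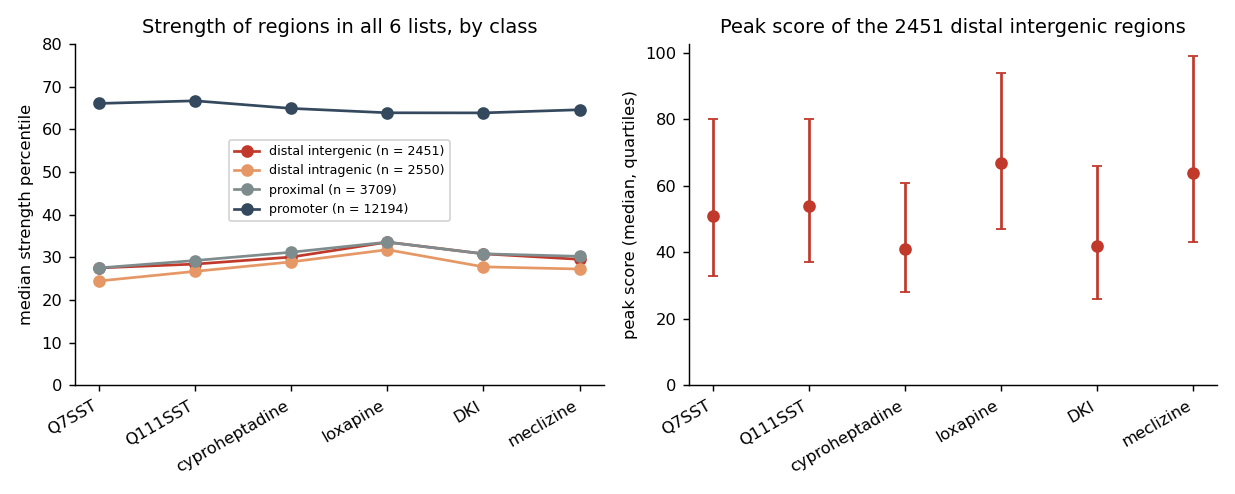
Left, median strength percentile (y axis) of 4 classes of regions found in all 6 lists, by list (x axis). Right, peak score of the 2451 distal intergenic regions, with points for medians and bars for quartiles. The distal intergenic medians lie between 27.5 and 33.6, below every promoter median (63.9 to 66.7).

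The part of a member covered by peaks also differed between lists. The median covered length was 996 bp in Q111SST, 928 bp with loxapine, 871 bp with meclizine, 851 bp in Q7SST, 709 bp with cyproheptadine and 675 bp with DKI. All 6 lists shared at least 1 base in all but 50 members (2.04%), and the shared stretch had a median of 463 bp.

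The members were poor in CpG. GC content of the central 300 bp had a median of 44.3% and the observed over expected CpG ratio a median of 0.238, against 57.7% and 0.656 at promoter regions. A CpG-rich window, with GC of at least 50% and a ratio of at least 0.6, was found in 149 members (6.08%; 5.20% to 7.10%). The share was 50.2% at promoter regions (49.3% to 51.1%), and 1.61% at distal regions inside genes (1.19% to 2.17%). Repeat-masked sequence filled at least 50% of the window in 117 members (4.77%; 4.00% to 5.69%), against 2.51% (1.97% to 3.19%) of distal regions inside genes and 1.53% (1.32% to 1.76%) of promoter regions.

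AP-1 motifs were the most frequent of the 11 motifs searched. They occurred in 945 members (38.6%; 36.6% to 40.5%), in 42.4% of distal regions inside genes (40.5% to 44.4%) and in 7.71% of promoter regions (7.25% to 8.20%). The RUNX motif TGTGGT was in 25.3% of members and 13.4% of promoter regions, and the TEAD motif ACATTCCA, read by effectors of Hippo signalling, in 4.04% and 1.02%. The TATA box, TATAAA, was in 20.8% of members and 8.41% of promoter regions. The order was the other way for GGGCGG, the SP and KLF motif (8.89% and 39.5%), for the ETS motif CCGGAAGT (0.449% and 3.21%), for the NRF1 motif GCATGCGC (0.408% and 1.81%) and for the cyclic AMP response element TGACGTCA (0.286% and 1.24%). The POU motif ATTTGCAT was in 2.33% of members and the CTCF core AGGGGGCGC in 0.449%. Motif shares follow base composition, which differed between these classes, and its part in them was not tested.

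**Figure D2:**
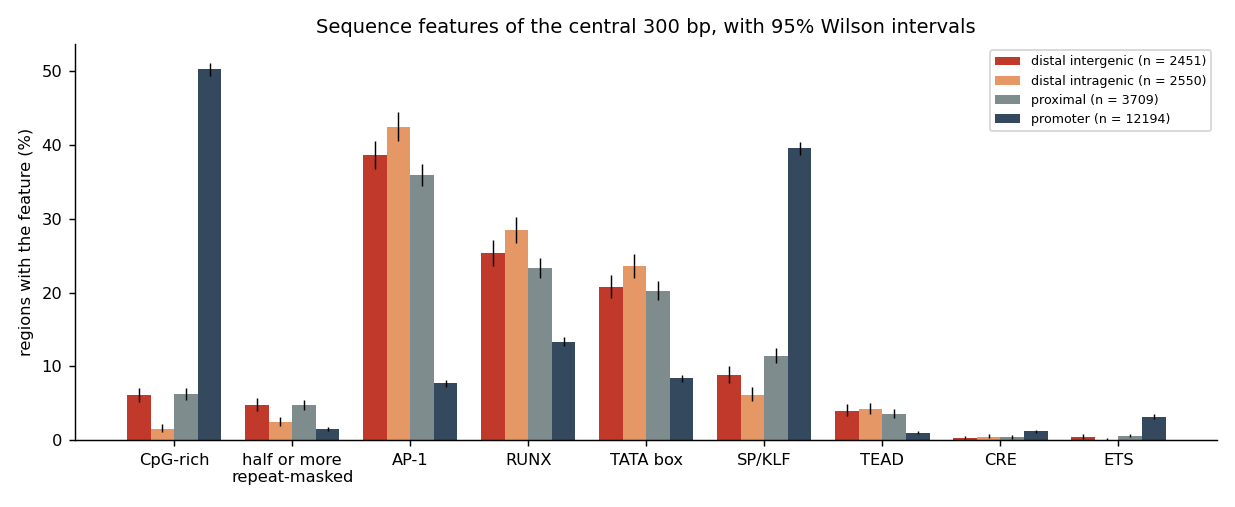
Share of regions (y axis, percent) with each sequence feature or motif in the central 300 bp (x axis), for 4 classes of regions in all 6 lists, with bars for shares and lines for 95% Wilson intervals. AP-1 is at 38.6% in distal intergenic regions and 7.71% at promoters, and CpG-rich windows are at 6.08% and 50.2%.

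Sequence varied with strength. In the 805 members with a median percentile of at most 20 the CpG ratio had a median of 0.181, and 0.500 in the 43 members above 95. The AP-1 share was 39.8% (36.4% to 43.2%) in the weakest members, 20.0% (13.8% to 28.0%) in the 120 members between 80 and 95, and 11.6% (5.07% to 24.5%) in the 43 strongest. A RefSeq transcript start within 1 kb was found for 4.72% of the weakest members and 23.3% (13.2% to 37.7%) of the strongest. Narrow regions under 800 bp made up 11.2% of the weakest and 37.2% of the strongest members.

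The 12 strongest members scored at least 175 in every list. The first, chr12:3109735-3110252, lay 199.717 kb from Rab10, which encodes a small GTPase of vesicle traffic. It scored 662 in Q7SST and 1262 in Q111SST, and 1363 with DKI, 1325 with cyproheptadine, 1271 with loxapine and 1062 with meclizine. Q7SST was the lowest list there, and the sequence is the largely repeated one described above. The part of reads from its copies in these scores was not tested. The next, chr19:61199398-61200464, was 15.508 kb from the gene model Gm6020 and scored 365 to 577.

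Several strong members were short, and few or none of the words in their windows were repeated on the assembled chromosomes. The region chr8:67431290-67431796, 49.125 kb from Nat1, an arylamine acetyltransferase gene, scored 395, 321, 348, 440, 270 and 462 in the order Q7SST, Q111SST, cyproheptadine, loxapine, DKI and meclizine. At chr9:24541867-24542299, 38.727 kb from Dpy19l1, the scores were 270, 444, 569, 401, 627 and 193 in that order. The meclizine list was the lowest there, and DKI the highest. In that window 6.69% of words were repeated, and the printed sequence holds a stretch that occurs again within it. Copies outside the assembled chromosomes were not counted, and their part in these scores was not tested. The region at chr10:57447892-57448597, near Hsf2, a heat shock factor gene, scored 294 in Q7SST and 302 with cyproheptadine but 391 to 643 in the other lists. The members near Moxd1, Lsm11 and Pkib, the last a protein kinase A inhibitor gene, scored 246 to 528, 244 to 382 and 175 to 312. Of the 12 regions 8 were under 1 kb wide and 1 held an AP-1 motif, the Atxn1l region.

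RefSeq, which the rule did not use, placed a gene on 4 of the 12. The member near Ifit1 overlapped the RefSeq gene Ifit1bl1, a relative of the interferon-induced Ifit1, and scored 258 to 394. The members near Atxn1l and Cggbp1 overlapped the RefSeq gene models Gm51550 and Gm8970, and Gm33971. The member near Commd3 lay on the asparagine tRNA gene n-TNgtt9 and scored 213 to 327.

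**Figure D3:**
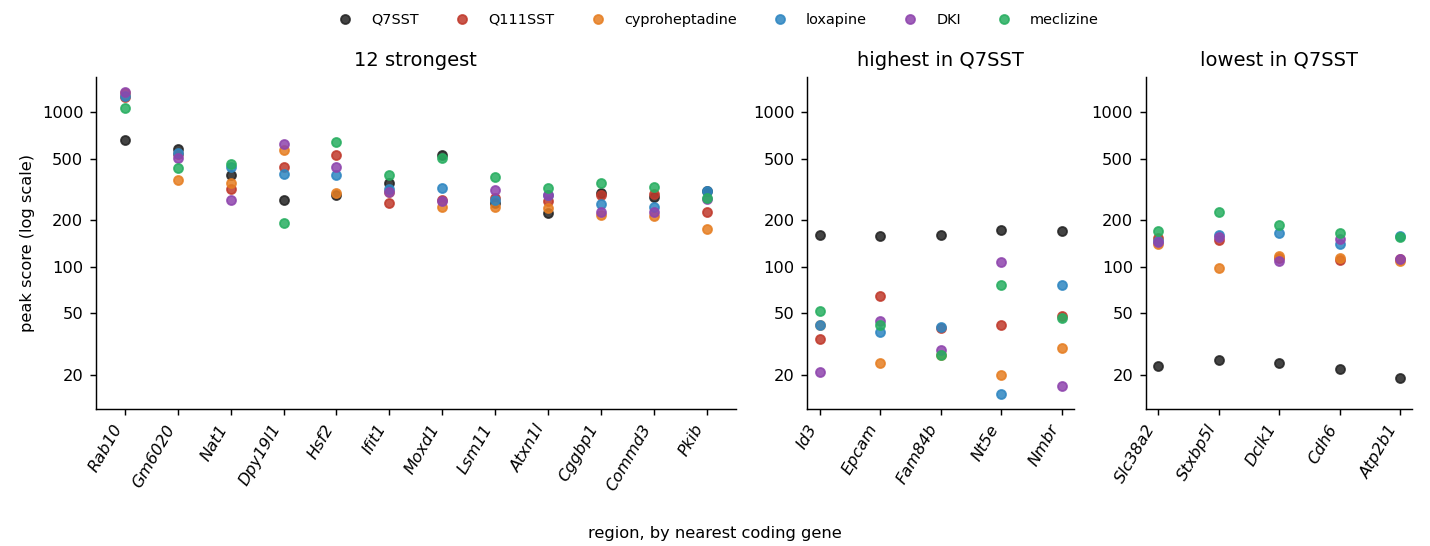
Peak score on a log axis (y axis) of named distal intergenic regions, each labelled by its nearest coding gene (x axis), with 1 point per list. Left, the 12 strongest; middle and right, the 5 members highest and the 5 lowest in Q7SST relative to the mutant median, where the Q7SST point lies apart from the 5 mutant points.

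tRNA genes stood beside some of the strongest members. A RefSeq tRNA gene lay within 1 kb of 26 members, and 22 of the 26 had a median percentile above 50. Their median percentile was 70.4, against 29.0 for all members, and their median width was 1781.5 bp. In none of the 26 did the central 300 bp hold an AP-1 motif (upper Wilson bound 12.9%). Chromosome 13 carried 13 of them, among them all 7 members of the cluster chr13:21215323-21279676 between Trim27 and Gpx5. The glutamate tRNA member n-TEttc7, 256.363 kb from Atp10a, scored 230, 245, 181, 215, 196 and 260. The median difference from Q111SST in these 26 members was -2.497 points with loxapine, -1.86 with cyproheptadine, -0.120 with DKI and 0.962 with meclizine. Of the 26 central windows 13 held no word repeated in the genome, and in the others at most 18.6% of words were repeated.

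A tandem array on chromosome 6 gave 16 members, the 9 nearest to Ezh2, the catalytic subunit of a Polycomb repressive complex, and the 7 nearest to Pdia4, which encodes a protein disulfide isomerase. It was singled out after its values were seen. Within the group nearest to each gene the middles of neighbouring members were 4.047 to 5.636 kb apart, with a median of 4.327 kb. All 16 were CpG-rich, with GC between 61.3% and 66.0%, and 15 had at least 50% of the central 300 bp made of words repeated in the genome. One of them overlapped Rn4.5s, a RefSeq gene for a small noncoding RNA of rodents, and the 200-base stretch printed above occurred 16 times on chromosome 6. These 15 members are copies of 1 sequence and not 15 independent regions. The remaining member, chr6:47650572-47651572, shared 5.998% of its words with the others.

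The copies were not equal in the lists. The median score over the 16 was 145 in Q7SST and 135.5 in Q111SST, and 129 with meclizine, 105.5 with DKI, 99 with loxapine and 63.5 with cyproheptadine. In percentiles 15 of the 16 were lower with loxapine than in Q111SST, with a median difference of -12 points over the 16, and 13 were lower with cyproheptadine, with a median of -11.8 points. Over all 2451 members 59.2% were higher with loxapine than in Q111SST, against 47% of all regions and 61.3% of distal regions inside genes. With cyproheptadine 52.9% of members were higher, against 53.9% of distal regions inside genes and 45.1% of promoter regions. Q7SST was above the mutant median in 15 of 16, with a median difference of 11.6 points over the 16. The median difference was 6.97 points in all 149 CpG-rich members and -1.20 points in all 2451 members. The member chr6:47743937-47744564 had the largest negative difference with loxapine of all members, with scores of 199 in Q111SST and 52 with loxapine. How reads of identical copies were placed is not given in the sources used here, and its part in these values was not tested.

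Wild-type and mutant lists ranked the members differently. Across the 2451 members the Spearman correlation of strength with Q7SST was 0.44 to 0.57 for the 5 mutant lists, while pairs of mutant lists had 0.68 to 0.80. Other classes had the same order. Distal regions inside genes gave 0.44 to 0.51 and 0.69 to 0.80, regions more than 1 kb and up to 10 kb from a start 0.50 to 0.60 and 0.70 to 0.82. Promoter regions gave 0.78 to 0.84 and 0.85 to 0.92. These are descriptions over regions that share genome and annotation. Q7SST was the lowest of the 6 lists in 656 members (26.8%), against 21.9% of all 20904 regions, and the highest in 550 (22.4%, against 23.1%). Q7SST lay at least 20 percentile points above all 5 mutant lists in 114 members (4.65%), and the share over all 20904 regions was 3.1%. It lay at least 20 points below all 5 in 155 members (6.32%), against 3.51% of all regions. Distal regions inside genes gave 3.88% and 6.12%.

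The members highest in wild-type cells included chr4:136115400-136117610, 25.887 kb from Id3, which encodes an inhibitor of basic helix-loop-helix factors. It scored 162 in Q7SST and 34, 42, 42, 21 and 52 in Q111SST, cyproheptadine, loxapine, DKI and meclizine. Near Epcam, an epithelial adhesion gene, chr17:87612840-87614073 scored 158 in Q7SST and 24 to 65 in the mutant lists. The members near Fam84b and, at a distance of 1230.84 kb, Nmbr, a neuromedin receptor gene, scored 162 and 171 in Q7SST and at most 41 and 77 in mutant lists. At chr9:88241434-88242161, near the ecto-nucleotidase gene Nt5e, Q7SST scored 174, and the DKI list, at 108, was nearer to it than the loxapine list, at 15.

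The members lowest in wild-type cells were led by chr15:96829723-96830956, 129.993 kb from Slc38a2, a neutral amino acid transporter gene. It scored 23 in Q7SST and 154, 140, 147, 146 and 171 in Q111SST, cyproheptadine, loxapine, DKI and meclizine. The mutant lists lay close together and far from Q7SST. The member chr16:37440180-37441289, 55.218 kb from the syntaxin-binding gene Stxbp5l, scored 25 in Q7SST and 98 to 226 in mutant lists, and its window held 3 AP-1 motifs. The members near Dclk1, a microtubule-associated kinase gene, Cdh6, a cadherin gene, and Atp2b1, a calcium pump gene, scored 24, 22 and 19 in Q7SST and at least 109 in every mutant list. These members were chosen for the difference, so the gap is a description.

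**Figure D4:**
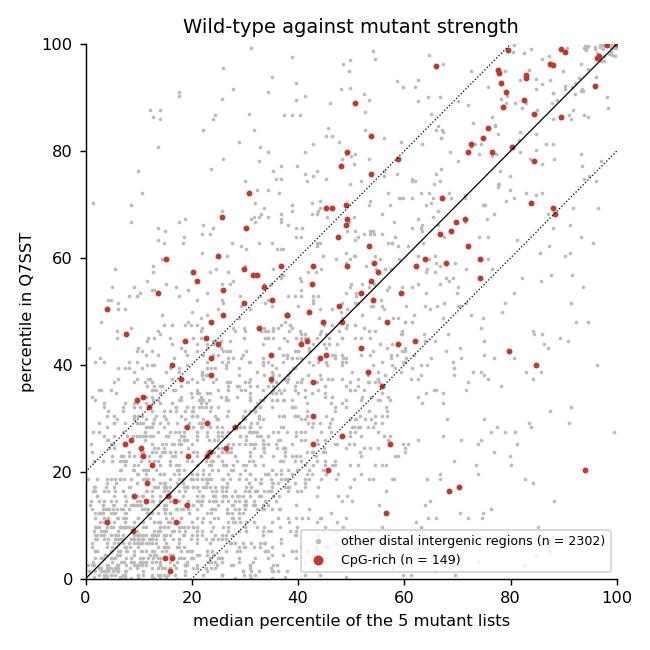
Strength percentile in Q7SST (y axis) against the median percentile of the 5 mutant lists (x axis) for the 2451 members, 1 point each. Red points are the 149 CpG-rich members, the solid line is equality and the dotted lines are 20 points from it. Points scatter to both sides, with more CpG-rich members above the line of equality than below it.

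CpG-rich members differed from the others in the place of Q7SST relative to the mutant lists. Their median difference between Q7SST and the mutant median was 6.97 points, against -1.65 points for the other 2302 members. Against Q111SST alone the median differences of Q7SST were 3.15 and -0.24 points. With the members of repeated sequence left out, 107 CpG-rich members remained and the median was 3.31 points. CpG-rich members were also stronger, at a median percentile of 48.3 against 28.1. Their median difference from Q111SST was 1.25 points with meclizine, -2.63 with DKI, -6.20 with loxapine and -6.39 with cyproheptadine.

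Against Q111SST, which all of the following comparisons share, Q7SST was at least 20 points higher in 381 members (15.5%; all regions 10.3%) and lower in 355 (14.5%; 9.91%). Cyproheptadine was higher in 344 (14.0%; 8.88%) and lower in 240 (9.79%; 8.07%). Loxapine was higher in 418 (17.1%; 8.98%) and lower in 159 (6.49%; 7.35%). DKI was higher in 347 (14.2%; 9.63%) and lower in 190 (7.75%; 8.68%). Meclizine was higher in 242 (9.87%; 5.42%) and lower in 132 (5.39%; 3.85%). Promoter regions, 12194 of the 20904, had the lowest shares at least 20 points higher with each compound, and the other classes were close to the members. For loxapine distal regions inside genes gave 17.6% higher and 5.45% lower, proximal regions, more than 1 kb and up to 10 kb from a start, 15.1% and 7.17%, and promoter regions 3.71% and 7.98%. With cyproheptadine, DKI and meclizine 13.02%, 12.8% and 8.55% of distal regions inside genes were higher, and 14.3%, 14.96% and 9.44% of proximal regions. The median difference over members was 3.38 points for loxapine and between 0.82 and 1.20 for the other compounds. All 4 compounds were at least 20 points higher in 30 members (1.22%; 0.751%) and lower in 14 (0.571%; 0.622%).

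The split between higher and lower depended on the scale. Ranked among all peaks of a list, in place of the regions in all 6 lists, DKI was higher in 93 and lower in 722 members, cyproheptadine in 149 and 502, meclizine in 157 and 191, and Q7SST in 243 and 618. Loxapine was higher in 405 and lower in 93 on that scale. DKI and cyproheptadine had the shortest lists and loxapine the longest, and the number of weak peaks in a list enters the rank among all its peaks. For Q7SST, cyproheptadine, DKI and meclizine the larger count was thus the higher one on the first scale and the lower one on the second. A longer list raises ranks on the second scale by construction, so its loxapine counts add nothing to those on the first.

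Members with an AP-1 motif differed more from Q111SST with loxapine than those without. The 945 members with a motif had a median difference from Q111SST of 7.43 points with loxapine, against 0.71 points in the 1506 without. For cyproheptadine the medians were 3.67 and -0.34 points, for DKI 2.35 and 0.59, and for meclizine 1.87 and 0.53. The gap between both sets kept its sign for all 4 compounds when scores were summed over peaks or ranked among all peaks, and for loxapine it was 6.96 and 5.68 points on those scales. The 220 members with more than 1 motif had a median of 9.75 points with loxapine. Distal regions inside genes gave medians of 6.91 points with a motif and 2.30 without.

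Members that differed from Q111SST by at least 20 points were compared in the same way. Of the 418 members higher with loxapine 51.4% (46.7% to 56.2%) held an AP-1 motif, and of the 159 lower 22.6% (16.8% to 29.7%). The other classes had the same order with loxapine, at 51.1% and 32.4% of distal regions inside genes, 45.2% and 24.4% of proximal regions and 19.7% and 5.45% of promoter regions. CpG-rich windows made up 0.957% of the former and 16.4% of the latter, and median GC was 41.0% and 49.3%. GC content thus moved with the result. In members with GC from 40% to 50% that were not CpG-rich, an analysis added after seeing the data, the AP-1 share was 51.2% (44.5% to 57.8%) of 211 higher and 27.1% (18.1% to 38.5%) of 70 lower members. The part of base composition in the remaining gap was not tested. The intervals also lay apart for cyproheptadine over all members, at 44.8% (39.6% to 50.1%) and 27.9% (22.6% to 33.9%), but those in the narrower GC range, 46.4% (39.4% to 53.7%) and 32.2% (24.4% to 41.1%), overlapped. For meclizine, 41.7% (35.7% to 48.0%) and 33.3% (25.9% to 41.7%), they overlapped over all members. For DKI the shares were 46.1% (40.9% to 51.4%) and 31.6% (25.4% to 38.5%), and 48.4% (41.2% to 55.6%) and 38.04% (28.8% to 48.3%) in the narrower GC range, where the intervals overlapped. The order was reversed with ranks among all peaks, at 35.5% and 37.95%. For Q7SST the order was the other way, at 35.7% (31.05% to 40.6%) of the 381 higher and 39.4% (34.5% to 44.6%) of the 355 lower members, with overlapping intervals. With 1 list per condition, this relation compares these lists.

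**Figure D5:**
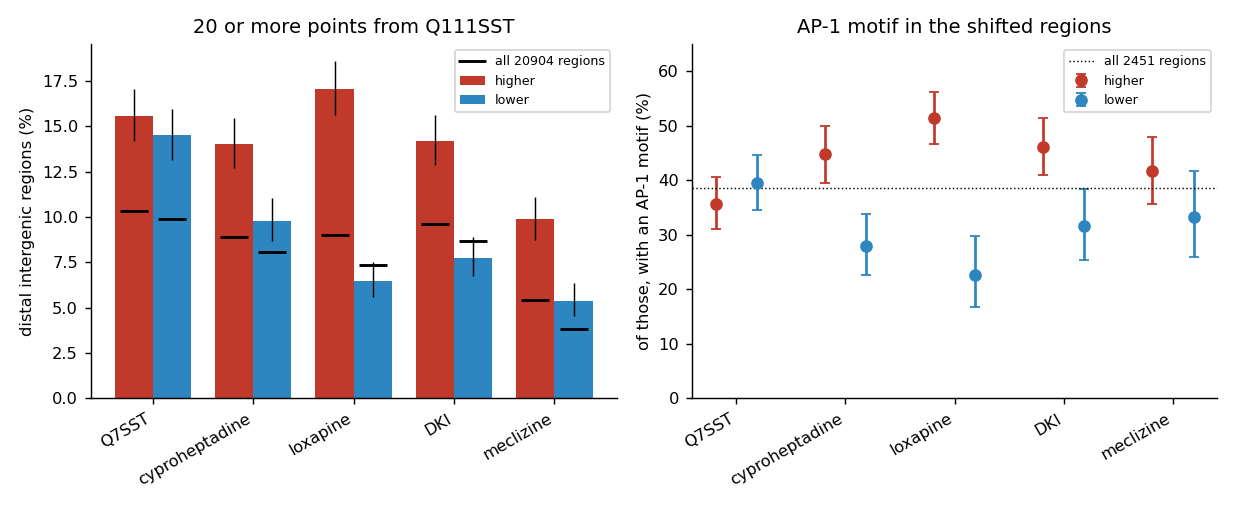
Left, share of distal intergenic regions (y axis, percent) at least 20 percentile points higher or lower than Q111SST in each other list (x axis), with black marks for the share over all 20904 regions. Right, share of those shifted members that hold an AP-1 motif, with the dotted line at 38.6% for all members; lines are 95% Wilson intervals, and the 2 loxapine shares (51.4% and 22.6%) lie farthest apart.

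Single members differed by much more. A member is called near a gene where that gene has the nearest coding start, at whatever distance. With loxapine the largest positive difference was at chr3:117471924-117473104, 101.732 kb from Plppr5, a phospholipid phosphatase-related gene, where Q111SST scored 23 and loxapine 121. DKI and meclizine scored 69 and 106 there. The members near Clvs1 and Nhlrc3 were 61.3 and 57.8 points higher with loxapine than in Q111SST, and both held an AP-1 motif, while the Plppr5 member held none. After the array member near Pdia4, the largest negative differences with loxapine were near Gm8251 and the acyl-CoA synthetase gene Acsbg1. The Gm8251 member, which overlapped the RefSeq gene Mettl21c, scored 136 in Q111SST and 46 with loxapine, and the Acsbg1 member 119 and 47.

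With cyproheptadine the largest positive difference lay at chr8:15519725-15520124, 400.718 kb from the muscle gene Myom2. Q111SST scored 32 there, cyproheptadine 133 and DKI 82. In that window 88.8% of words were repeated in the genome, with a median of 11 copies. Near Sypl the scores were 32 in Q111SST and 95 with cyproheptadine and near Bcas1 33 and 83, and neither window held repeated words. The largest negative differences lay near Zfp217, a zinc finger gene, Myof, which encodes a membrane repair protein, and Mfsd11. Their scores were 135, 117 and 157 in Q111SST and 29, 26 and 43 with cyproheptadine.

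With DKI the largest positive difference was at chr5:60042721-60043158, 1765.66 kb from G6pd2, the nearest coding gene. Q111SST scored 32 there, DKI 172 and cyproheptadine 66. Repeated words made up 87.0% of the window of this region. The members near Fam72a and Wdr5, which encodes a subunit of H3K4 methyltransferase complexes, scored 19 and 30 in Q111SST and 89 and 95 with DKI. The Fam72a window was 73.0% repeat-masked, and 12.6% of its words were repeated. Near Wdr5 the other compounds also scored above Q111SST, at 46, 90 and 112. The largest negative difference lay near Myo3a, with scores of 149 in Q111SST and 41 with DKI. Near the DNA polymerase gene Poll they were 122 and 33, and near Gm5096, in a window with 84.4% repeated words, 97 and 22.

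With meclizine the member near Apbb1ip scored 110, against 16 in Q111SST, and loxapine scored 82 there. At the member 701.467 kb from Poteg the scores were 41 in Q111SST and 141 with meclizine. Near 4931417E11Rik they were 45 and 142, and all 3 members held an AP-1 motif. Of the 12 members named as highest with the 4 compounds 5 held one, none of them with cyproheptadine or DKI, and of the 12 named as lowest 1 did, against 38.6% of all members. The largest negative differences lay near Gm8797, near Tnc, the gene of the matrix protein tenascin, and near Tef, a circadian output factor gene. Their scores were 124, 128 and 92 in Q111SST and 55, 63 and 40 with meclizine, while cyproheptadine and DKI scored 224 and 196 at the Tnc member. That member, chr4:64497712-64498209, lay 450.697 kb from the Tnc start. Repeated words made up 72.5% of the Gm8797 window and 49.1% of the Tnc window.

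The nearest coding start of the 2451 members belonged to 1636 genes, 7.87% of 20780 coding genes, and 180 genes were nearest to at least 3, while 1160 were nearest to 1 member only. Counted per gene, 68.5% (66.2% to 70.7%) of the 1636 were themselves marked within 1 kb of a start in all 6 lists, against 54.7% of all coding genes. For genes nearest to at least 3 members it was 83.9% (77.8% to 88.5%). For the genes nearest to distal intergenic regions found in 1 list the share was 62.3% (60.4% to 64.2%). Clusters, with gaps of at most 25 kb, held 702 members (28.6%).

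The genes nearest to most members were Klf6 with 10, Cited2 and Ezh2 with 9 each, and Adamts5, Inhba and Rasgrp1 with 8 each. Around Klf6, a growth-responsive zinc finger factor gene, members lay 15.162 to 611.959 kb from the start on both sides. The strongest, chr13:6191884-6194085, scored 96, 112, 126, 144, 122 and 145 in the order of lists above, with Q7SST the lowest. Over the 10 Klf6 members Q7SST scored below all 5 mutant lists in 5 and within their range or tied in 5. Around Cited2, a transcriptional co-regulator gene, the nearest of 9 members, chr10:17548806-17550472, was 172.746 kb away and scored 116 to 180, whereas the other 8 had scores of 14 to 134.

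At Adamts5, which encodes a protease of the cartilage proteoglycan aggrecan, the member chr16:86346700-86348578 scored 35 in Q7SST and 137, 108, 162, 150 and 179 in the mutant lists. Another member, chr16:86034333-86035320, scored 16 in Q7SST and 59 to 124 in the mutant lists. The mutant lists did not overlap Q7SST at either. Over the 8 Adamts5 members Q7SST scored below all 5 mutant lists in 3 and within their range in 5. By percentile, a scale other than that of these score counts, Q7SST was the lowest list in 26.8% of all members and 21.9% of all regions. The 8 members nearest to Inhba, the activin subunit gene, and the 8 nearest to Rasgrp1, a Ras activator gene, were mostly weak, with median percentiles of at most 54.7 and 42.4.

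Genes of 4 of the 6 chosen lists were near members more often than coding genes at large (7.87%), but these genes were picked with earlier results known and lie in regions of differing gene density. The lists gave 12 of 34 neural progenitor and striatal transcription factors, 16 of 30 mesenchymal factors and matrix genes, 7 of 25 AP-1 and immediate early genes, 15 of 37 growth factor and morphogen genes, and 1 of 15 (6.67%) each for autophagy and sterol metabolism. No test was made. Over all lists 52 of 156 genes (33.3%) were nearest to 117 members.

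Among the AP-1 and immediate early genes, the member near Nr4a1, a nuclear receptor gene induced by many stimuli, scored 269, 151, 151, 157, 175 and 253, highest in Q7SST and with meclizine. The members near Fos, at 17.463 kb and 10.716 kb, scored 101 to 191 and 81 to 130. Near Klf4 the strongest of 3 members scored 190 in Q7SST, 199 with meclizine and 83 to 143 in the other lists. Median percentile over the 22 members of this list was 47.3, against 29.0 for all members.

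Mesenchymal genes had 39 members. At Runx1, a factor gene of blood and skeletal development, 5 members lay 171.263 to 356.3 kb away, and chr16:93182449-93183473 scored 26 in Q7SST and 113 to 176 in the mutant lists. The Twist1 member, 81.825 kb away, scored 43 in Q7SST and 80 to 138 in the mutant lists, and the nearest of 6 Col3a1 members scored 22 and 38 to 112. Q7SST was below all 5 mutant lists at these 3 members, whereas the Ccn2 member chr10:24491857-24494153 scored 45 to 81 in the mutant lists and was highest in Q7SST. At the other 2 Ccn2 members Q7SST was the lowest, at 38 against 43 to 135 and at 19 against 35 to 76. In percentiles Q7SST was the lowest list in 19 of the 39 members (48.7%), against 26.8% of all members and 21.9% of all regions, and the highest in 4 (10.3%, against 22.4% and 23.1%). It was the lowest in 6 of the 23 members of the neural list, 5 of the 31 of the growth factor list and 7 of the 22 of the AP-1 and immediate early list. Members near 1 gene are not independent, and the lists were not tested.

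Among neural factors, the strongest member lay 11.34 kb from Meis2, a homeobox gene of the striatal lineage, and scored 53 in Q7SST and 86 to 178 in the mutant lists, highest with loxapine. Foxp1, another striatal factor gene, had 4 members with scores of 23 to 128. The Dlx2 member at 33.797 kb scored 102 in Q7SST and 22 to 77 in the mutant lists, and the other, at 96.975 kb, 60 and 33 to 88. The median percentile of the 23 members of this list was 17.6.

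Growth factor and morphogen genes had 31 members with a median percentile of 25.2. The stronger of 2 Wnt7b members, 51.505 kb from the start, scored 170 to 224 and overlapped the RefSeq transcript D130051D11Rik. A Vegfc member, 161.246 kb away, scored 184, 95, 76, 172, 141 and 176, and 72.5% of the words in its window were repeated. The other, 79.581 kb away, scored 50 to 109. The strongest of 5 Tgfb2 members scored 40 in Q7SST and 81 to 140 in the mutant lists. At the other 4 Q7SST lay within the range of the mutant lists. The Igf1 member scored 135 in Q7SST and 40 to 110 in the mutant lists.

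For autophagy there was 1 member. The region, 14.767 kb from Atg16l1, which encodes an autophagosome conjugation factor, scored 29 in Q111SST and 54, 86, 48 and 86 with cyproheptadine, loxapine, DKI and meclizine, and 90 in Q7SST. Q111SST was the lowest list there. The sterol member, 35.957 kb from the cholesterol exporter gene Abca1, scored 175 in Q7SST, 140 in Q111SST and 211, 172, 146 and 248 with the compounds. All 4 compounds were above Q111SST at both members, in score and in percentile, by 30.2 to 42.4 points at the Atg16l1 member and 9.18 to 17.7 points at the Abca1 member. In percentiles this order held in 572 members (23.3%) and in 17.7% of all regions, and Q111SST was the lowest of the 6 lists in 15.4% of members and 12.2% of all regions.

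The widest members were not the strongest. The widest, chr4:129032651-129036485, spanned 3835 bp near Rnf19b and scored 37 to 101. The region near Nfe2l3, 3783 bp wide and 95.942 kb from the miRNA gene Mir148a, scored 17 in Q7SST and 64 to 83 in the mutant lists. The region near Hfe2, 3620 bp wide, held 3 tRNA genes and scored 97 to 150. The wide members near Thbs2 and Col11a1, both matrix genes, scored 25 to 48 and 23 to 46. The member farthest from any start, chr1:114673650-114674749, lay 545.014 kb from a pseudogene and 1010.01 kb from Cntnap5a, and scored 25 to 45. The far members near B230118H07Rik, Tox3 and Xpnpep1 scored 25 to 67, 16 to 75 and 30 to 74. Near Car10 a member 295.534 kb from any start scored 52 in Q7SST and 107 to 176 in the mutant lists.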

How the data were processed

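H3K4me3 ChIP-Seq peak lists of 6 conditions, 1 list each, were used. The submitters' processing notes name Trimmomatic 0.36, Bowtie2, SAMtools 1.3, MACS2 and the build mm10, with no role, order or threshold. Each line of the lists deposited by the authors gave an interval and a score in whole numbers, at least 10, whose scale is not stated. Read totals were not used here, so depth is unknown. The design text describes treatment in triplicate, and pooling is not stated.

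Overlapping peaks were merged and classed with GENCODE M21 on GRCm38, since 0 peaks passed a chromosome end. Sequence, repeat masking and further genes were read from RefSeq, GRCm38.p6. Strength was the strongest score per list and region, ranked among regions in all 6 lists. Scripts were checked on simulated lists. Named members followed fixed rules: the 12 strongest, the 5 per direction for Q7SST against the mutant median, the 3 per direction for each compound against Q111SST, the 5 widest and the 5 farthest from a start, the genes nearest to most members (6 with ties), the 3 regions on each side of the 10 kb limit, and members nearest to genes of 6 lists. The members and lists were chosen with earlier results of these data known. With 1 list per condition no test was made. Values were computed with scipy 1.17.1, pandas 2.3.3 and numpy 2.4.6 in Python 3.11.15 and drawn with matplotlib 3.10.9.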

Additional observations from a re-analysis of the deposited data

How the results depend on the processing

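No paired analysis was possible because there was just 1 list for each group. The number of members stayed within 1.5 times of 2451 when peaks within 1 kb were merged, with a limit of 5 kb, with lists of equal size, with 1 base common to all lists and with RefSeq starts and genes also barred, an alternative added after seeing the data. It was 556 with a limit of 50 kb, 614 after peaks below the median score over all lists were dropped, and 4214 with only protein-coding genes annotated. With each list left out in turn it ran from 2460 without loxapine to 3301 without Q7SST. The CpG-rich share was 3.39% with GC of 55% and a ratio of 0.65, and 3.63% over the whole region. The repeat-masked share was 3.02% over the whole region and 17.4% with a lower masking limit.

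Of 30 alternatives for the 10 counts of members at least 20 points from Q111SST, 22 lay within 1.5 times. Those with ranks among all peaks did not: Q7SST had 243 higher and 618 lower, cyproheptadine 149 and 502, DKI 93 and 722, loxapine 93 lower and meclizine 157 higher. The number of weak peaks in a list enters that scale by construction. Depth could not be assessed, and its part in the differences between lists was not tested.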

Other observations

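Chromosome X was outside the rule. It held 60 distal intergenic regions in all 6 lists, 0.351 per Mb, against 0.496 to 1.48 per Mb on chromosomes 1 to 19. These were 10.9% of the 552 chromosome X regions in all 6 lists, within the range of 7.13% to 16.6% on chromosomes 1 to 19.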
